A study of Mus musculus with 24 samples.

Results

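The period genes Per1, Per2 and Per3, the cryptochrome genes Cry1 and Cry2, and Ciart encode the proteins that shut off transcription in the circadian clock. The 6 genes were found by name, with Ciart listed as Gm129 in older annotations, among 37621 gene entries, and all 6 had counts in every region. In mammals, the activators CLOCK (or NPAS2) and BMAL1, encoded by Arntl, bind E-box sequences and switch on the Per, Cry and Ciart genes over the day. PER and CRY proteins then enter the nucleus and repress those activators, while CIART (also called CHRONO) binds BMAL1 and represses it as well. Outside the central pacemaker, in cortex, hippocampus, cerebellum and olfactory bulb, the same loop runs in neurons and glia. Per1 has a second input: cAMP response elements that bind CREB and let neuronal activity raise its RNA within an hour or so.

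The libraries came from dissected brain regions of C57BL/6 mice with a Cdr1as knockout (KO) and of wild-type (WT) C57BL/6 mice, with 3 libraries per genotype in each of 4 regions, 24 in all. Cdr1as is a circular transcript abundant in neurons, and its sequence is densely packed with miR-7 target sites. Total RNA was sequenced after removal of ribosomal RNA. The sources used here do not give the way the locus was deleted, the age of the mice or the hour at which tissue was taken, and a difference in hour between genotypes cannot be told apart from the knockout. They also do not say whether replicates were separate animals, so the spread behind each p-value may be technical.

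Gene counts came to between 5.18 M and 30.46 M in each library (median 16.9 M). Cdr1as had 0 to 13 counts in KO libraries, against 5617 to 130878 counts in WT libraries, as the labels say. Region markers also fitted the labels: in cerebellum, for example, the 8 cerebellar markers summed to 4213 to 4338 CPM in KO and 4129 to 4591 CPM in WT libraries, against at most 223 CPM in any cortex library. The olfactory bulb list was less specific, with 1175 to 1302 CPM in KO and 1185 to 1247 CPM in WT bulb but 1045 to 1069 CPM in KO and 901 to 1067 CPM in WT cerebellum. 3 libraries stood apart by shallow depth, with under 8 M gene counts and fewer genes detected than the other 21: cerebellum KO 1, olfactory bulb KO 2 and olfactory bulb WT 1. Levels are in CPM, gene counts scaled to a common library size with TMM factors over the 24 libraries, and differences are log2 fold changes of KO over WT with their standard errors (SE). For edgeR the SE was derived, as the absolute log2 fold change over the square root of the F statistic, and is approximate at low counts.

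Promoter windows are shown because E-boxes, D-boxes and CREB elements are the known inputs to the clock repressors. Each window spans a transcription start and lies mostly upstream of it, 5′ to 3′ on the gene's strand, from RefSeq on GRCm38.p6, and 5 of the 6 genes matched the table by symbol. Capitals mark the E-box CACGTG, the D-box TTATGTAA that binds DBP, TEF, HLF and NFIL3, and the CRE core TGACGTC that binds CREB. Each motif was searched on both strands, and the marked matches do not overlap each other.
Ciart (chr3:95882179-95882478, minus strand): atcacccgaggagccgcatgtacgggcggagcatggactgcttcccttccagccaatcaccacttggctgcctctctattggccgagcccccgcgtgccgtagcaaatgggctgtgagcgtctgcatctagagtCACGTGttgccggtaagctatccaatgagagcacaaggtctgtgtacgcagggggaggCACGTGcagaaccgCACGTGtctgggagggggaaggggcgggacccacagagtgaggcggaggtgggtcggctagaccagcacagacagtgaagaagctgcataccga
Per3 (chr4:151044616-151044915, minus strand): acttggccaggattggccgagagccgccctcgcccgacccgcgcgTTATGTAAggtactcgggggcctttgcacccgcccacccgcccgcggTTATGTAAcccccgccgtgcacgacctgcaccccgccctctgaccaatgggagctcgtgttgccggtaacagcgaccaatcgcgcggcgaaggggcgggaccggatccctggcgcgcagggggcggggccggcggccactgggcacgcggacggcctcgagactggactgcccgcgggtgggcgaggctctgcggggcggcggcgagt
Per1, upstream start (chr11:69098699-69098998, plus strand): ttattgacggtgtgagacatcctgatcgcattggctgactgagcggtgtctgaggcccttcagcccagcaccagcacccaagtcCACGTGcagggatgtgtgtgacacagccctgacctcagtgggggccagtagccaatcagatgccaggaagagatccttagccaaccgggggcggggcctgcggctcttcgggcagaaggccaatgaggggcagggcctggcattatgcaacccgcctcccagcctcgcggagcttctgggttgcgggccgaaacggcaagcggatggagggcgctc
Per1, downstream start (chr11:69099902-69100201, plus strand): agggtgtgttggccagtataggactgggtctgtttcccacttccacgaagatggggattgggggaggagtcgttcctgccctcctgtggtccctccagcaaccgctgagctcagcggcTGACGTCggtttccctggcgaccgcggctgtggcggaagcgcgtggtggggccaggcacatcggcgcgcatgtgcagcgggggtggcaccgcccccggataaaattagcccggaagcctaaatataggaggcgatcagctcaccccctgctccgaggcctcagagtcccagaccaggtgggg
Cry1 (chr10:85185005-85185304, minus strand): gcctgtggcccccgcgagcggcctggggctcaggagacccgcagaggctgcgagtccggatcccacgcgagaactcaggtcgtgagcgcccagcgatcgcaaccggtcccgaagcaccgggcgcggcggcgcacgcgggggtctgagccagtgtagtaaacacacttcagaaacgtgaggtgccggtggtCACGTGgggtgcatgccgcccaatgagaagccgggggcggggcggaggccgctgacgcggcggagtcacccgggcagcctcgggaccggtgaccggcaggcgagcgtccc
Ciart held 3 E-boxes, at positions -116, -58 and -44 from the start, a number found in 0.0883% of 32851 promoters of the same length. Per3 held 2 D-boxes, at -205 and -158, found in 0.0213% of promoters. The window at the downstream Per1 start held 1 CRE core at -132, which 3.21% of promoters hold, and the window at its upstream start held 1 E-box at -166. Cry1 held 1 E-box at -60, an element present in 7.15% of promoters. The Cry2 window held none of the 3 motifs. These matches describe letters in the windows and not occupied sites.

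Per1, the period gene that responds fastest to outside stimuli (ENSMUSG00000020893, chromosome 11), was higher in KO than in WT libraries in all 4 regions, by 1.43-fold in cerebellum, 1.47-fold in hippocampus, 1.92-fold in cortex and 1.93-fold in olfactory bulb. In bulk tissue, fewer cells of a type and less RNA per cell cannot be told apart, and this holds for every difference given here. In cortex it had 214, 180 and 209 CPM in KO libraries, against 109, 91.8 and 107 CPM in WT libraries. In olfactory bulb it had 175, 223 and 229 CPM in KO libraries, against 77.9, 101 and 138 CPM in WT libraries. Every KO library of both regions lay above every WT library, as for 7.61% of all genes in cortex and 8.09% in olfactory bulb, and the lowest cortical KO value stood well clear of the highest WT value. In cerebellum the KO libraries had 119, 149 and 165 CPM and the WT libraries 92.4, 93.5 and 117 CPM. In hippocampus the KO libraries had 112, 130 and 150 CPM and the WT libraries 73.9, 91.8 and 101 CPM. The genotypes did not overlap here either (5.65% of all genes in hippocampus and 4.89% in cerebellum lay wholly above WT), although the lowest KO and highest WT values were close in both. All KO above all WT in 4 of 4 regions was seen for 24 of 14411 genes tested in every region (0.167%).

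The log2 fold change of Per1 was 0.94 (SE 0.11) in cortex, 0.95 (SE 0.20) in olfactory bulb, 0.55 (SE 0.15) in hippocampus and 0.52 (SE 0.15) in cerebellum. Its p-value in cortex, 2.75e-05, was the second smallest of 15777 genes by edgeR's quasi-likelihood test, with a Benjamini-Hochberg adjusted p of 0.217. In olfactory bulb, hippocampus and cerebellum the edgeR adjusted p-values were 0.974, 0.953 and 0.949. For the mean over regions Per1 was higher by 0.75 (SE 0.12), with an adjusted p of 0.122 by limma, rank 8 of 17600 genes. Without the shallow libraries Per1 stood at 0.63 in cerebellum and 0.72 in olfactory bulb. Few genes passed the threshold of 0.05 in these fits: 0.0253% of all genes in olfactory bulb, 0.00634% in cortex, 0.0062% in hippocampus, 0.00644% in cerebellum and 0.0114% for the mean over regions, and none of the 6 clock repressors was among them. At an unadjusted p under 0.05 the shares of all genes were 2.43% in olfactory bulb, 5.64% in cortex, 4.01% in hippocampus, 1.89% in cerebellum and 5.06% for the mean over regions. The members below that p numbered 3 of 6 in olfactory bulb, 1 of 6 in cortex, 2 of 6 in hippocampus, 5 of 6 in cerebellum and 4 of 6 for the mean over regions, and Per1 was among them in each. With DESeq2, 1 of the 6, Per1, passed in cortex and in olfactory bulb, and none passed in hippocampus or cerebellum.

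In the cortex, KO and WT libraries of the same replicate number deviated together from their group means, and so did the means over regions. The cortical match was uneven, as KO 3 was closer to WT 1 (r = 0.32) than to WT 3 (r = 0.15). Replicate 2 of both genotypes also had the largest share of reads outside annotated genes in cortex. Whether that share accounts for the pairing was not tested. With the replicate number as a block, Per1 passed in cortex, at a log2 fold change of 0.94 (SE 0.10) and an edgeR adjusted p of 9.09e-04, and for the mean over regions, at 0.75 (SE 0.07) and a limma adjusted p of 0.00399. Over all alternatives these adjusted p-values ran from 1.76e-09 to 1 in cortex and from 5.23e-05 to 0.688 for the mean over regions, while the log2 fold change stayed between 0.88 and 1.0 in cortex and between 0.66 and 0.87 for the mean. A test of whether the KO difference of Per1 varied between regions gave an unadjusted p of 0.129 (edgeR interaction, adjusted p 1), and the other 5 members had unadjusted p-values of 0.19 or more, where 0.00568% of all genes passed and 1.48% were under 0.05 unadjusted.

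**Figure D1:**
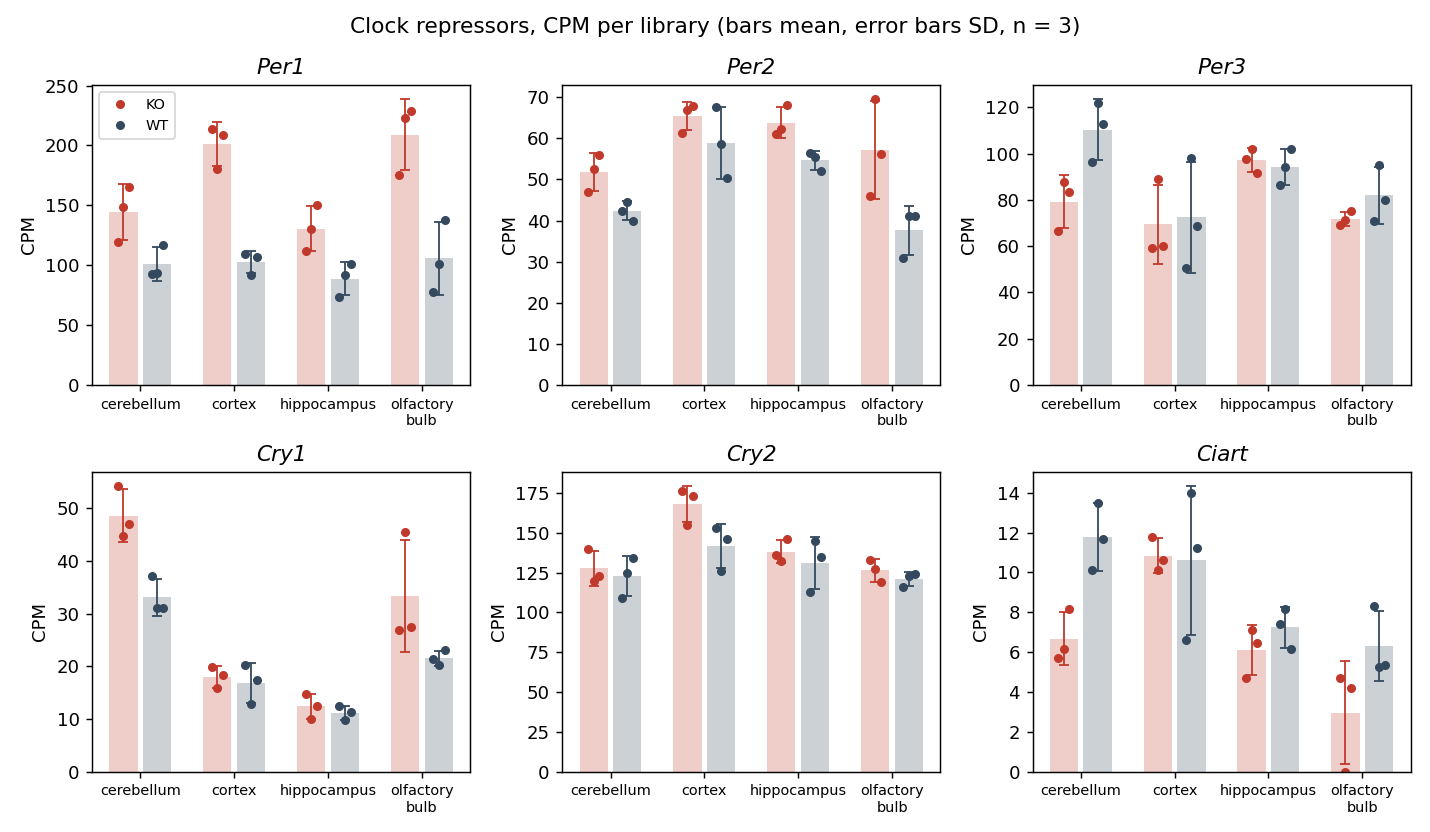
CPM of each clock repressor in every library (points), with KO left of WT in each brain region, bars at the mean and error bars of 1 SD (n = 3). Per1 libraries of KO mice lie above those of WT mice in all 4 regions, while Per3 and Ciart lie below in cerebellum, at 79.2 and 6.68 CPM in KO against 110 and 11.8 CPM in WT.

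Per2, the period gene whose protein scaffolds the repressor complex (ENSMUSG00000055866, chromosome 1), was on the higher side in KO tissue, by less than Per1. In olfactory bulb it had 45.9, 69.5 and 56.1 CPM in KO libraries and 30.8, 41.0 and 41.0 CPM in WT libraries. In hippocampus it had 61.0, 62.3 and 68.2 CPM in KO and 56.4, 55.5 and 52.1 CPM in WT libraries. In cerebellum it had 46.9, 52.5 and 56.0 CPM in KO and 42.4, 44.6 and 40.0 CPM in WT libraries. In these 3 regions every KO library lay above every WT library, as for 131 of 14411 genes in at least 3 regions (0.909%). In cortex the genotypes overlapped, with 61.4, 67.0 and 67.8 CPM in KO and 67.7, 58.6 and 50.3 CPM in WT libraries. The log2 fold changes were 0.56 (SE 0.19) in olfactory bulb, 0.22 (SE 0.10) in hippocampus, 0.30 (SE 0.11) in cerebellum and 0.12 (SE 0.14) in cortex, and edgeR adjusted p-values were 0.91 or more in each. The olfactory bulb difference was 0.27 without the shallow libraries KO 2 and WT 1. For the mean over regions it was 0.30 (SE 0.10, limma adjusted p 0.908).

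Per3, the period gene with the weakest role in the loop itself and the one with 2 D-boxes in its promoter (ENSMUSG00000028957, chromosome 4), went the other way in cerebellum. It had 66.4, 87.8 and 83.6 CPM in cerebellar KO libraries, against 96.2, 122 and 113 CPM in WT libraries. Every KO library was below every WT library, as for 6.48% of all genes in cerebellum. The log2 fold change was -0.47 (SE 0.14), with an edgeR adjusted p of 0.949, and -0.37 without the shallow KO 1 library. No such separation was seen in the other regions, where the log2 fold changes were -0.23 (SE 0.13) in olfactory bulb, -0.08 (SE 0.27) in cortex and 0.04 (SE 0.10) in hippocampus. In cortex Per3 varied most within a genotype: 59.4, 88.9 and 59.9 CPM in KO and 50.6, 98.3 and 68.5 CPM in WT libraries. The high library in each genotype was replicate 2, and it was also the one with the largest share of reads outside annotated genes. That share, of gene plus unassigned reads, was 35.6%, 60.6% and 40.3% in cortical KO libraries and 25.2%, 63.1% and 42.0% in WT libraries. With the share as a covariate the cortical log2 fold change of Per3 was -0.12 with an SE of 0.09. Per3 lies within the span of Camta1 on the same strand and shares no exon base with it.

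Cry1, the stronger of the cryptochrome repressors (ENSMUSG00000020038, chromosome 10), was higher in KO tissue in cerebellum and olfactory bulb and close to WT in cortex and hippocampus. In cerebellum it had 54.2, 44.7 and 46.9 CPM in KO libraries, against 37.1, 31.1 and 31.0 CPM in WT libraries. In olfactory bulb it had 26.8, 45.5 and 27.5 CPM in KO libraries, against 21.3, 20.2 and 23.1 CPM in WT libraries. The genotypes did not overlap in either region, where 4.89% of all genes in cerebellum and 8.09% in olfactory bulb lay wholly above WT. The shallow KO 2 library of olfactory bulb was far above the rest, and without it the log2 fold change there was 0.29 rather than 0.58 (SE 0.23). In cerebellum the log2 fold change was 0.55 (SE 0.13), with an edgeR adjusted p of 0.949, and 0.46 without the shallow KO 1 library. In cortex Cry1 had 15.8 to 19.8 CPM in KO and 12.8 to 20.3 CPM in WT libraries, and in hippocampus 10.1 to 14.8 CPM in KO and 9.81 to 12.4 CPM in WT libraries. The 2 genotypes overlapped in both, with log2 fold changes of 0.06 (SE 0.18) in cortex and 0.14 (SE 0.18) in hippocampus.

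Cry2, the more evenly expressed cryptochrome (ENSMUSG00000068742, chromosome 2), had the smallest difference for the mean over regions, a log2 fold change of 0.10 (SE 0.08). In cortex it had 176, 155 and 173 CPM in KO libraries, against 153, 126 and 146 CPM in WT libraries, a log2 fold change of 0.21 (SE 0.11, adjusted p 0.858 by edgeR). The lowest KO value lay just above the highest WT value, and 7.61% of all genes lay wholly above WT in cortex. In the other regions it had 120 to 140 CPM in cerebellar KO and 109 to 134 CPM in WT libraries, 132 to 146 CPM in hippocampal KO and 113 to 145 CPM in WT libraries, and 119 to 133 CPM in olfactory bulb KO and 116 to 124 CPM in WT libraries. The genotypes overlapped in all 3, with log2 fold changes of 0.03 to 0.07.

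Ciart, the E-box driven repressor that acts on BMAL1 (ENSMUSG00000038550, chromosome 3), had the lowest level of the 6 per kilobase of annotated exon and was on the lower side in cerebellum and olfactory bulb of KO mice. In cerebellum it had 5.70, 6.16 and 8.18 CPM in KO libraries, against 10.1, 13.5 and 11.7 CPM in WT libraries. All KO values were below all WT values, as for 6.48% of all genes in cerebellum. The log2 fold change was -0.81 (SE 0.24), with an edgeR adjusted p of 0.949, and -0.72 without the shallow KO 1 library. In KO 1, 394 of 2240 genes at 3 to 9 CPM in the region's other 5 libraries were at 0, or 17.6%. In olfactory bulb it had 4.70, 0 and 4.18 CPM in KO libraries, against 8.31, 5.24 and 5.38 CPM in WT libraries. The genotypes did not overlap, as for 4.14% of all genes below WT in olfactory bulb, but the 0 came from the shallow library KO 2, where a count of 0 allows up to 0.525 CPM (3 counts, counting error only). In that library 405 of 2387 genes at 3 to 9 CPM in the region's other 4 libraries of full depth were also at 0, or 17%. Those genes lie above 0.525 CPM in the other libraries, so that limit may be too low for KO 2. The log2 fold change in olfactory bulb was -1.07 (SE 0.87), -0.53 without KO 2 and -0.30 without both shallow libraries. In hippocampus Ciart had 4.70, 7.12 and 6.47 CPM in KO and 7.41, 8.18 and 6.14 CPM in WT libraries, and in cortex 11.8, 10.1 and 10.6 CPM in KO and 6.60, 14.0 and 11.2 CPM in WT libraries. These overlapped, at -0.24 (SE 0.21) in hippocampus and 0.01 (SE 0.26) in cortex. The mean over regions, -0.82 (SE 0.32, limma adjusted p 0.908), was -0.38 without KO replicate 2.

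**Figure D2:**
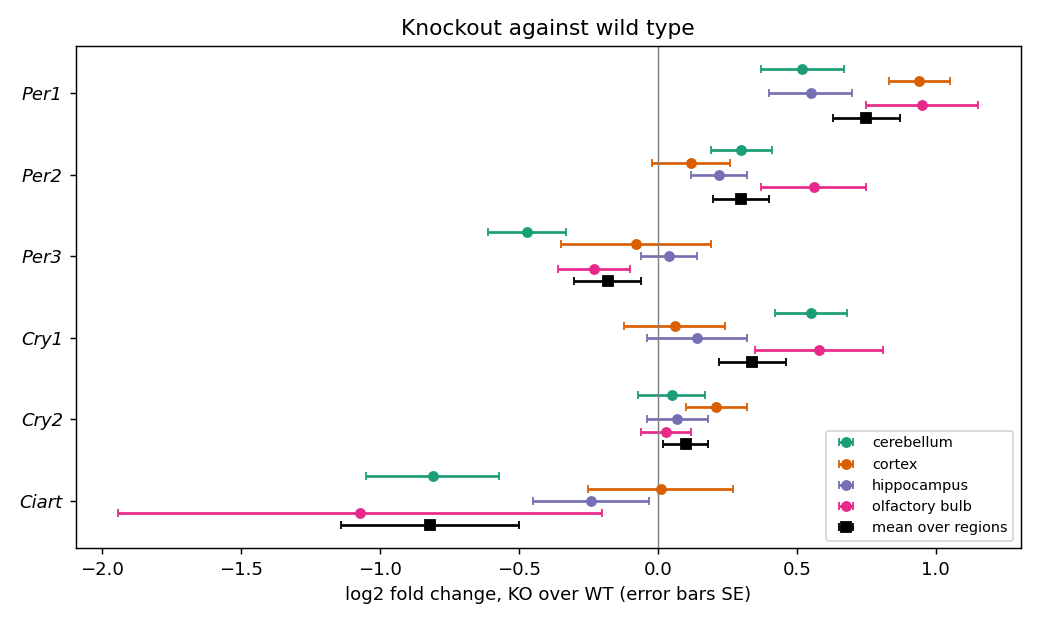
Log2 fold change of KO over WT for each clock repressor (x axis, error bars SE) in 4 regions and for the mean over regions (black squares). Per1 lies to the right of 0 in every region, from 0.52 to 0.95, and Ciart reaches -1.07 in olfactory bulb with the widest error.

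Within a library, the ratio of one repressor to another does not depend on how libraries are scaled. The log2 ratio of Per1 to Per3 counts was 0.84, 0.76 and 0.98 in cerebellar KO libraries, against -0.06, -0.39 and 0.06 in WT libraries, a difference of 0.99. In olfactory bulb it was 1.34, 1.64 and 1.61 in KO against 0.13, 0.08 and 0.79 in WT libraries, a difference of 1.19. In both regions every KO library had a higher ratio than every WT library. The difference was 0.51 in hippocampus, again with no overlap, and 1.01 in cortex, where the genotypes overlapped. Within the 3 same-numbered pairs of cortex the ratio of Per1 to Per3 was higher in KO by 0.75, 1.12 and 1.16. An exact paired permutation test, added after the values were seen, gave a two-sided p of 0.25, the smallest that 3 pairs allow. The ratio of Per1 to Per2 separated the genotypes in cortex, with 1.80, 1.43 and 1.63 in KO against 0.68, 0.65 and 1.09 in WT libraries. The Cry1 to Cry2 ratio separated them in cerebellum (-1.37, -1.42 and -1.39 in KO, -1.56, -2.01 and -2.11 in WT libraries) and in olfactory bulb, with differences of 0.50 and 0.52. In cortex and hippocampus the Cry1 to Cry2 differences were -0.13 and 0.06. Of 12 such comparisons, 6 reached the smallest two-sided p that an exact permutation test of 3 against 3 allows, 0.1, which is 0.2 after Benjamini-Hochberg adjustment over the 12.

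**Figure D3:**
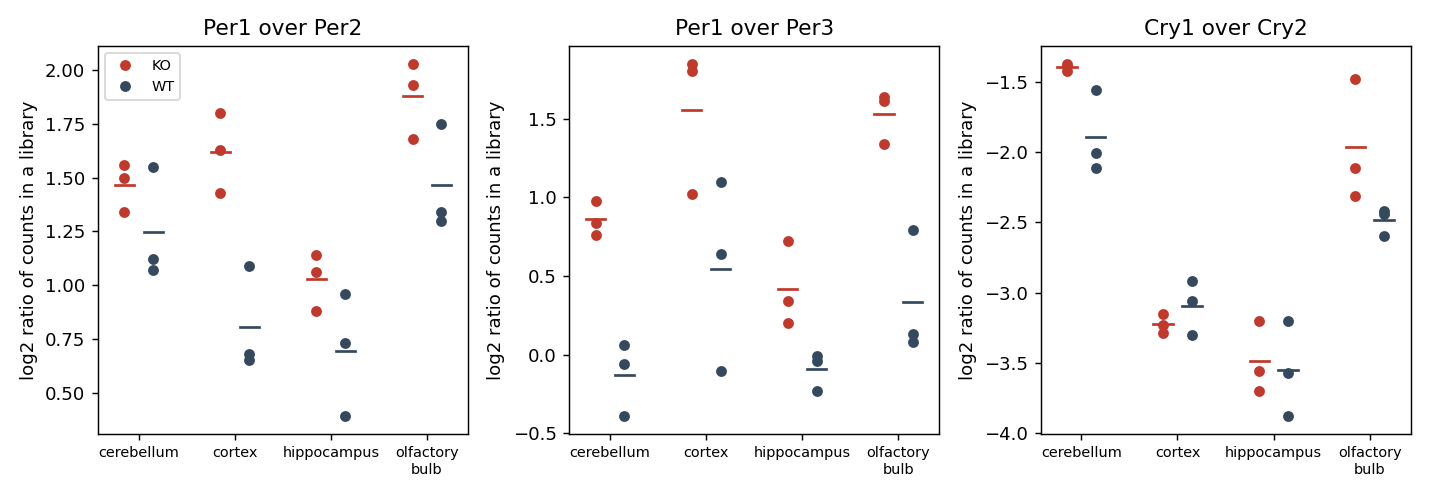
Log2 ratio of the counts of 2 repressors within each library (points; lines mark means, n = 3), KO left of WT in each region. The Per1 over Per3 ratio is higher in KO libraries with no overlap in cerebellum, hippocampus and olfactory bulb, by 0.99, 0.51 and 1.19.

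Other genes of the clock were read from lists of 7 activators, 11 further repressors and output genes, and 14 genes for the kinases and ubiquitin ligases that set PER and CRY stability. None of these 32 genes passed the threshold in any region in the main edgeR fits. Under an unadjusted edgeR p of 0.05 there were 5 in cerebellum and 3 in each other region. The shares of all genes under that p were 1.89% in cerebellum, 5.64% in cortex, 4.01% in hippocampus and 2.43% in olfactory bulb. By DESeq2 Dbp passed in cerebellum and hippocampus, where the numbers of all genes that passed are given with the early genes below. The clearest difference was in Dbp, a D-box activator and a direct E-box target of CLOCK and BMAL1. Dbp averaged 41.9 ± 1.43 CPM in KO and 68.7 ± 8.61 CPM in WT cerebellum (SD, n = 3 each), a log2 fold change of -0.72 (SE 0.13, edgeR adjusted p 0.949). In hippocampus it averaged 29.5 ± 0.70 CPM in KO and 48.4 ± 8.52 CPM in WT libraries, also -0.72 (SE 0.14). It was at -0.52 (SE 0.18) in olfactory bulb and -0.32 (SE 0.14) in cortex. Nr1d2, a nuclear receptor that represses Arntl, was at -0.44 (SE 0.12) in cortex, -0.29 (SE 0.11) in hippocampus and -0.27 (SE 0.11) in olfactory bulb, and its relative Nr1d1 at -0.29 (SE 0.10) in cerebellum. Nfil3, the D-box repressor, was on the other side, at 0.77 (SE 0.22) in olfactory bulb and 0.64 (SE 0.22) in cortex. Bhlhe40, an E-box repressor that is also an activity-induced gene, was at 0.74 (SE 0.18) in cortex and -0.30 (SE 0.10) in cerebellum. In cortex Bhlhe40 passed by edgeR with the replicate block, and both Bhlhe40 and Nfil3 passed with the share of unassigned reads as a covariate.

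Of the further repressors and output genes, 3 of 11 were higher in cerebellum, in hippocampus and in olfactory bulb and 5 of 11 in cortex, where 43.1%, 46.2%, 47.8% and 50.1% of all genes were higher. By mean CPM the olfactory bulb count was 5 of 11. Their median log2 fold changes in that order were -0.29, -0.14, -0.09 and -0.07. Over all genes tested, the medians were -0.04 in cerebellum, -0.02 in hippocampus, -0.01 in olfactory bulb and 0.00084 in cortex. Of the activators, 7 of 7 were higher in cerebellum, 6 of 7 in hippocampus, 4 of 7 in cortex and 2 of 7 in olfactory bulb (4 of 7 by mean CPM), with medians between -0.03 and 0.15. Arntl, which encodes BMAL1, was at 0.33 (SE 0.15) in olfactory bulb, 0.30 (SE 0.12) in cerebellum, 0.20 (SE 0.11) in cortex and 0.09 in hippocampus. Of the stability genes, 8 of 14 were higher in cerebellum, 4 of 14 in cortex, 9 of 14 in hippocampus and 5 of 14 in olfactory bulb. Among them Csnk1e, a kinase that marks PER proteins for degradation, was at 0.41 (SE 0.22) in cerebellum, where it had 106, 61.0 and 62.6 CPM in KO and 62.4, 55.0 and 54.8 CPM in WT libraries. The high value came from the shallow KO 1 library alone. Csnk1d, a kinase with the same role, was at 0.17 (SE 0.09) in hippocampus and in olfactory bulb.

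**Figure D4:**
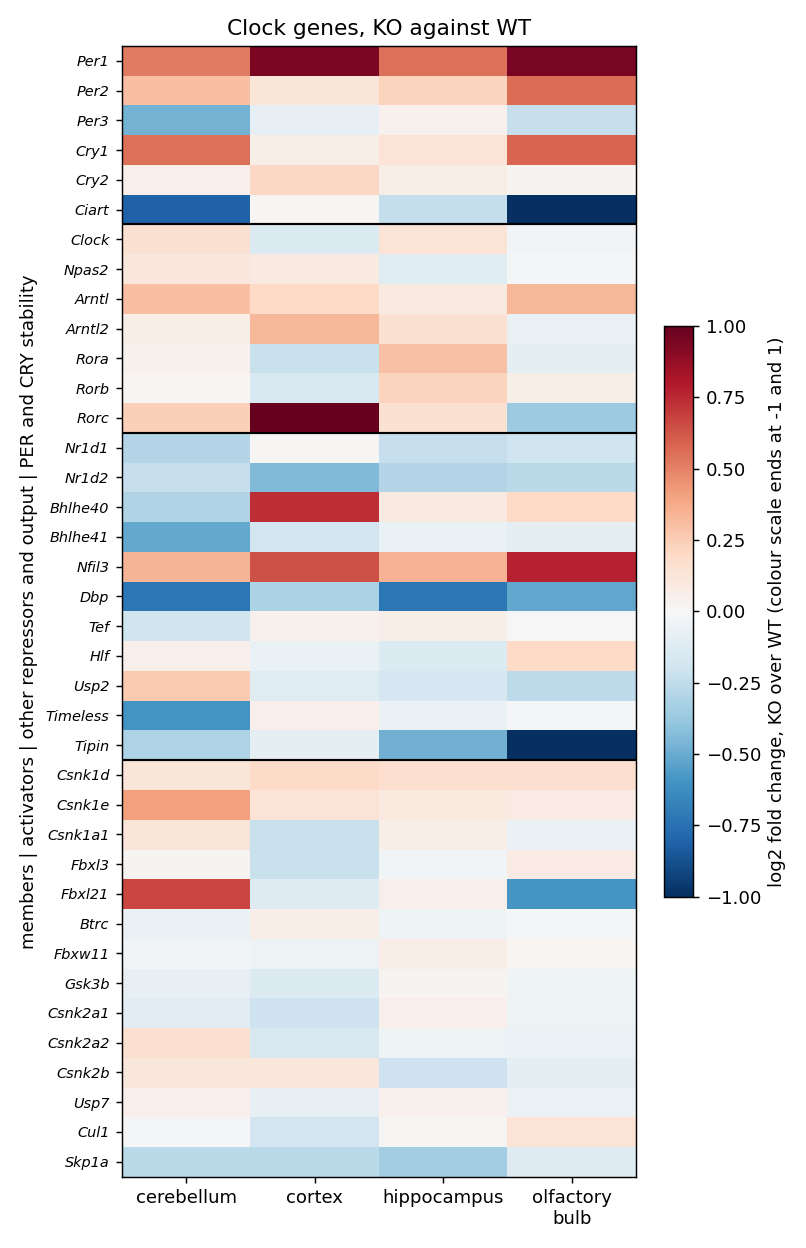
Log2 fold change of KO over WT (colour, red higher in KO, scale ending at -1 and 1) for the 6 clock repressors and 32 other clock genes in 4 regions. The Per1 strip is red in every region, whereas Dbp is blue in every region, from -0.72 to -0.32.

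Per1 is also an early gene of neurons, and its values were set beside 20 genes that CREB and neuronal activity induce. The study's publication dwells on early genes and the list was written with earlier results of these data known, so its counts are not independent evidence of direction. In cerebellum 16 of 18 tested early genes were higher in KO (median log2 fold change 0.87), in cortex 18 of 20 (1.04), in hippocampus 18 of 20 (0.71) and in olfactory bulb 20 of 20 (1.48). Per1 was below that median in all 4 regions. In olfactory bulb 3 of them passed by edgeR, each at an adjusted p of 0.0167: Fosb at 2.17 (SE 0.23), Fosl2 at 1.68 (SE 0.17), both subunits of the AP-1 factor, and the zinc finger factor Egr3 at 1.58 (SE 0.16). The 20 early genes summed to 1655 to 2347 CPM in KO and 497 to 1041 CPM in WT olfactory bulb, and 1983 to 2642 CPM in KO and 862 to 1219 CPM in WT cortex. These 3 calls were lost without KO 3, without WT 1 or without WT 2, and without both shallow libraries Nr4a2 was the only early gene to pass. None passed in cerebellum, cortex or hippocampus by edgeR, where 9, 17 and 13 were under an unadjusted p of 0.05, as were 1.89%, 5.64% and 4.01% of all genes. Other settings added calls. With the replicate block 12 of the 30 genes that passed in cortex were early genes, among them Nr4a1, Fos and Junb, and with the share of unassigned reads as a covariate 9 of 57 were. With DESeq2, 6 of the 19 genes that passed in cerebellum were early genes, 10 of 40 in cortex, 7 of 16 in hippocampus and 8 of 17 in olfactory bulb. Without the shallow KO 1 library Nr4a2 and Nr4a3 passed in cerebellum. With no filter on low counts Nr4a3 passed in cerebellum, 4 early genes in cortex (Egr2, Fos, Junb and Nr4a1) and Egr1 and Junb in hippocampus. The block gave 4 in hippocampus, where the replicate numbers did not pair the libraries. In every region the log2 fold change of Per1 was at least 0.52, and 21 of 14411 genes (0.146%), Per1 included, kept all 4 at or above that value. Per1 itself set this cutoff. Among the 21 were the early genes Dusp1, Egr4, Fos, Fosb, Npas4, Nr4a1, Nr4a3 and Sik1. The rest, none on the early gene list, were 1700016P03Rik, Apold1, Banp, C230004F18Rik, Dnase1l2, Gm13096, Gm15344, Gm16310, Stac3, Tbx6, Tm6sf2 and Tnfrsf25. Of the genes that glucocorticoids induce, 5 of 12 were higher in cerebellum, 7 of 12 in cortex and 6 of 12 in hippocampus and in olfactory bulb, with medians of -0.07, 0.05, 0.05 and 0.04, and none passed by edgeR or DESeq2. Under an unadjusted edgeR p of 0.05 there were 2 in cerebellum, 0 in cortex, 3 in hippocampus and 1 in olfactory bulb, beside the shares of all genes given above for Per1. The metallothionein gene Mt2 was on the lower side, at -0.54 (SE 0.16) in olfactory bulb and -0.51 (SE 0.12) in cerebellum.

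**Figure D5:**
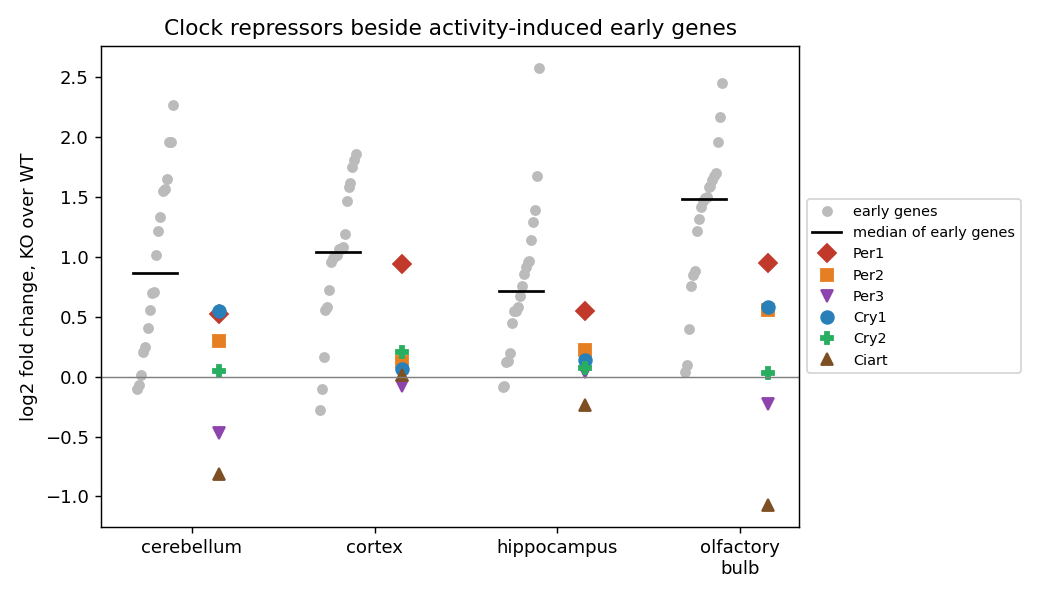
Log2 fold change of KO over WT for activity-induced early genes (grey points, median as a black line) and for the 6 clock repressors (coloured symbols) in each region. Per1 lies within the range of the early genes and below their median, for example 0.95 against 1.48 in olfactory bulb, while Per3 and Ciart lie under most early genes in cerebellum and olfactory bulb.

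The genes most like each member were found by Pearson correlation of log2 CPM, centred on the mean of each region, over the 24 libraries and among 13208 expressed genes. These libraries share depth and dissection, and the correlations are descriptions. Per1 was most like Nr4a1 (r = 0.96), an orphan nuclear receptor, then Fos (0.93) and Junb (0.91), which encode AP-1 subunits, the salt-inducible kinase Sik1 (0.93) and the zinc finger factor Egr4 (0.92). After centring on region and genotype, so that only spread within a group remains, r was 0.91 for Nr4a1, 0.89 for Fos, 0.81 for Egr4, 0.79 for Junb and 0.70 for Sik1. The median r of Per1 with the 20 early genes was 0.82, against 0.01 over all genes, and with the 7 clock activators it was 0.02. These values include the difference between genotypes. After centring on region and genotype the median with the early genes was 0.53 for Per1, against 0.02 over all genes, and 0.31 for Per2, against -0.05. Per2 was most like Ncoa5, Gpr3, Ppp1r13l, Map3k6 and Sik2 (r = 0.83 to 0.84), and its median r with the early genes was 0.69. Over the 21 libraries of full depth the r of Per2 with those genes, in that order, were 0.75, 0.63, 0.59, 0.57 and 0.84. Cry2 was most like Lrp1, Dab2ip, Celsr2, Bsn and Plec (0.81 to 0.84), and Cry1 like Nr2f6, Fam131a, Nck2, Bop1 and Pcgf3 (0.84 to 0.87). Over the 21 libraries of full depth these r were 0.78 to 0.86 for Cry2 and 0.74 to 0.81 for Cry1. Per3 was most like Strada, Gm14443, Mdm4, 2700097O09Rik and Nsmaf (0.88 to 0.91), and after centring on region and genotype these r were 0.89 to 0.95. Its r with the 5 astrocyte markers was below 0 for all, with a median of -0.58, against a median of 0.36 for Cry1, whose r with them was above 0 for all. The genes nearest Ciart (Abhd14b, Tipin, Gm49405, Zfp566 and Qrsl1) had r of 0.97 to 0.98 over 24 libraries and only 0.39 to 0.66 over the 21 libraries of full depth, so that likeness rests on the shallow ones.

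Among the members, Per1 and Per2 were alike (r = 0.77, and 0.48 within groups). Cry1 ran opposite to Ciart (-0.78, and -0.73 within groups) and opposite to Per3 (-0.70, and -0.61 within groups). Over the 21 deeper libraries these values were -0.78 for Ciart and -0.81 for Per3. In cortex, replicate 2 of both genotypes had the largest share of unassigned reads, the lowest Cry1 and the highest Per3. Ciart was highest in replicate 2 of WT cortex and lowest in replicate 2 of KO cortex. Whether that share accounts for these correlations, or for those with astrocyte markers, was not tested. Per1 and Cry1 had an r of 0.55 over the 24 libraries and 0.08 within groups.

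Across WT regions the members had distinct maps. Cry1 was the most regional: it averaged 33.1 ± 3.50 CPM in WT cerebellum, 21.6 ± 1.45 CPM in olfactory bulb, 16.8 ± 3.75 CPM in cortex and 11.2 ± 1.28 CPM in hippocampus (SD, n = 3 each), a 2.96-fold range. WT cerebellum against the mean of the other regions was higher for Cry1 by 1.05 on the log2 scale (SE 0.13, edgeR adjusted p 1.11e-05) and hippocampus was lower, at -1.07 (SE 0.15, adjusted p 7.05e-05). Neighbours in that order differed between cerebellum and olfactory bulb (0.59, edgeR adjusted p 0.0114) and between cortex and hippocampus (0.63, edgeR adjusted p 0.0304), where 36.6% and 9.77% of all genes passed. Cortex against olfactory bulb did not pass (-0.37, edgeR adjusted p 0.101), where 38.3% of all genes did. The KO libraries, which are other samples, gave the same order of Cry1, with 48.6 ± 5.0, 33.3 ± 10.6, 18 ± 2.03 and 12.4 ± 2.31 CPM from cerebellum to hippocampus, a 3.91-fold range, and cerebellum higher by 1.32 (SE 0.17, edgeR adjusted p 2.01e-05).

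Per2 was highest in WT cortex, at 58.8 ± 8.72 CPM, and lowest in WT olfactory bulb, at 37.6 ± 5.91 CPM. It passed in WT for cortex (0.41, SE 0.11, edgeR adjusted p 0.0129) and for olfactory bulb (-0.41, SE 0.12, edgeR adjusted p 0.0151). In KO libraries it passed in neither, with 0.18 (SE 0.12) for cortex and -0.07 (SE 0.12) for olfactory bulb, and the difference between the genotypes did not pass the interaction test (edgeR adjusted p 1). Leaving out WT 1 of either region ended its call, at 0.30 (adjusted p 0.105) for cortex and -0.29 (adjusted p 0.0811) for olfactory bulb. Per3 and Ciart were highest in WT cerebellum, at 110 ± 13.2 and 11.8 ± 1.70 CPM, and passed there against the other regions, at 0.42 (SE 0.16, edgeR adjusted p 0.0421) and 0.59 (SE 0.21, edgeR adjusted p 0.0333). Both calls were lost without WT cerebellum 2 or without WT cerebellum 3, with adjusted p-values of 0.178 and 0.108 for Per3 and 0.165 and 0.0875 for Ciart. In KO libraries the cerebellum stood at 0.02 (SE 0.13) for Per3 and 0.17 (SE 0.50) for Ciart. Such calls are common between regions: of all genes, 46.8% passed for WT cerebellum, 33.4% for cortex, 25.9% for hippocampus and 35.9% for olfactory bulb, where 3, 1, 1 and 1 of the 6 members did. Same-numbered WT libraries deviated together in some pairs of regions, as in cerebellum and cortex (r = 0.38, 0.34 and 0.33), but not in all, as in cortex and hippocampus (0.44, 0.33 and -0.11). With the replicate number as a block Per3 also passed for WT cortex, at -0.42 (SE 0.11, edgeR adjusted p 0.00785). Without the block it was at -0.39 (adjusted p 0.0877), and its edgeR and DESeq2 adjusted p-values ran from 0.0033 to 0.431 over the alternatives.

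Per1 and Cry2 were even across WT regions, with means of 89.0 to 105 CPM for Per1 and 121 to 142 CPM for Cry2, and no region passed for either. In KO libraries Per1 had a 1.60-fold range, against 1.18-fold in WT. Of all genes, 40.1% passed for KO cerebellum, 27.1% for cortex, 19.9% for hippocampus and 27.9% for olfactory bulb. Within KO, Per1 passed as higher in olfactory bulb (0.43, SE 0.12, edgeR adjusted p 0.0122) and cortex (0.33, SE 0.12, edgeR adjusted p 0.0474) and as lower in hippocampus (-0.48, SE 0.12, edgeR adjusted p 0.0123). The order of the means, olfactory bulb, cortex, cerebellum and hippocampus, was that of the WT means. Cry2 passed in KO cortex (0.35, SE 0.08, edgeR adjusted p 0.00353) and stood at 0.19 (SE 0.10) in WT cortex. The difference between the genotypes did not pass the interaction test for Per1 or Cry2 (unadjusted edgeR p of 0.129 and 0.553). The KO region calls were not refitted under alternatives, such as without the shallow libraries.

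Levels of different genes can be compared only per length. Per kilobase of all annotated exon, Cry2 and Per1 were the most abundant of the 6 by mean level in every region of both genotypes and Ciart was the scarcest. Cry2 averaged 20.0 to 26.6 CPM per kb over KO regions and 19.1 to 22.4 over WT regions, and Per1 averaged 23.2 to 37.1 CPM per kb in KO and 15.8 to 18.7 in WT. Per1 thus lay above Cry2 in all 4 KO regions and below it in all 4 WT regions on this scale. Per kilobase of the principal transcript, where Cry2 is much shorter, Per1 exceeded Cry2 in KO cortex (43.1 against 42.2 CPM per kb) and KO olfactory bulb (44.7 against 31.7), but not in KO cerebellum (30.8 against 32.1) or KO hippocampus (28.0 against 34.6). On the exon scale Per2 and Per3 averaged 8.85 to 11.2 and 7.22 to 10.1 CPM per kb in KO and 6.42 to 10 and 7.54 to 11.5 in WT regions. Cry1 averaged 3.72 to 14.5 CPM per kb in KO and 3.34 to 9.91 in WT regions, and Ciart 1.31 to 4.8 in KO and 2.79 to 5.21 in WT regions. The place of Ciart as the scarcest depended on the scale in WT hippocampus, where it had 3.74 CPM per kb of the principal transcript and Cry1 had 3.69.

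Marker levels of other tissue differed between libraries in some regions. The summed levels of the genotypes did not overlap for cerebellar markers in cortex or for endothelial and blood markers in cerebellum. They overlapped for choroid plexus markers in hippocampus and cerebellum, and for olfactory bulb and hypothalamic markers in cortex. The 8 cerebellar markers summed to 131 to 147 CPM in KO and 174 to 223 CPM in WT cortex, with the mean of 1 of 8 higher in KO. The 7 choroid plexus markers summed to 33.7 to 39.7 CPM in KO and 33.5 to 2335 CPM in WT hippocampus, with none of 7 higher, and to 256 to 631 CPM in KO and 24 to 1114 CPM in WT cerebellum. The 4 endothelial markers summed to 140 to 179 CPM in KO and 183 to 191 CPM in WT cerebellum, with none of 4 higher, and the 2 blood markers to 32.4 to 50.3 CPM in KO and 23.3 to 28.5 CPM in WT cerebellum, with both higher. None of these markers was at 0 in every library of its region. In cortex the 7 olfactory bulb markers summed to a median of 242 CPM in KO and 265 CPM in WT libraries, with the mean of 1 of 7 higher in KO. None of the 6 that could be tested there was higher, with a median log2 fold change of -1.19. Eomes was at -2.98 (SE 0.56), Shisa3 at -1.61 (SE 0.35), Sp8 at -1.17 (SE 0.30) and Th at -1.15 (SE 0.35), each under an unadjusted edgeR p of 0.05 and none past the adjusted threshold. In cerebellum Eomes was at 1.27 (SE 0.17, edgeR adjusted p 0.391). The 7 hypothalamic and pituitary markers summed to 6.33 to 54.5 CPM in KO and 16.3 to 60.7 CPM in WT cortex, with 3 of 7 means higher, and 1 KO library of olfactory bulb reached 558 CPM, against 35.9 to 39.4 CPM in WT bulb. In cortex Pmch was at -4.80 (SE 1.14) and Oxt at -2.60 (SE 0.80). Of the 6 genes of this list tested there, 3 were higher in KO, with a median log2 fold change of -0.33. None passed the adjusted threshold, and 3, all lower in KO, were under an unadjusted edgeR p of 0.05, as were 5.64% of all genes. The part of these tissues in the differences of the clock repressors, Per1 in cortex included, was not tested. Markers of the suprachiasmatic nucleus, the central pacemaker, summed to at most 66.1 CPM in any library, and Avp, Nms and Prok2 were at 0 in every cerebellar library.

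Since Cdr1as binds miR-7, the longest annotated 3′ untranslated region of each member was searched for GTCTTCC, the match to bases 2 to 8 of miR-7. It was found in Cry2 and in none of the other 5, and 12.5% of 21824 genes hold it. The site is shown in capitals with its flanks, beside mature miR-7a-5p from RefSeq with the seed in capitals.
Cry2 site (chromosome 2): acctgagcaaGTCTTCCttctaccccg
miR-7a-5p: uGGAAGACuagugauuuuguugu
Reads of Cry2 could include those of the antisense gene D930015M05Rik, which shares 295 exon bases with it, but that gene had 108 counts over the 24 libraries, against 56071 for Cry2.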

How the data were processed

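The authors deposited a table of raw read counts by gene for each library, in whole numbers. TRIzol extraction, RNase H depletion of ribosomal RNA and a stranded total RNA kit were used, per the labels' protocols. STAR 2.5.1b, HTSeq 0.6.1p1 and the build mm9 are named, per the submitters' processing notes, without the role of each tool or the strand setting of the counting. Library sizes and tests did not use the 5 summary entries of each table. Reads in no feature made up 20.3% to 62.9% of a library's entries. Names from a GENCODE annotation (GRCm38) matched 32897 of 37620 Ensembl identifiers.

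KO was tested against WT per region with edgeR 4.0.16 (quasi-likelihood F-test, TMM, filterByExpr at a minimum count of 10, robust) in R 4.3.3, and for the mean over regions with limma 3.58.1 on log2 CPM (prior count 2) averaged per genotype and replicate number. All 6 members passed the filter in every region. Adjusted p-values are Benjamini-Hochberg over all genes tested, with a threshold of 0.05, and tests are two-sided. Alternatives included DESeq2 1.42.0. Deviations from group means correlated between same-numbered KO and WT libraries at r = 0.44, 0.59 and 0.15 in cortex and 0.19, 0.17 and 0.23 for the mean over regions, so blocked values are given there. Named genes were the members, up to 2 genes with the smallest p (or those past the threshold) per list and region, and the 5 genes most like each member. The values of Arntl, Bhlhe40, Dbp, Nfil3, Nr1d2 and Mt2 in regions where they were not among those 2, and the genes listed as having all 4 fold changes at or above that of Per1, were added after values were seen. The members and gene lists were chosen with earlier results of these data known. Intervals and floors cover counting error only.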

Additional observations from a re-analysis of the deposited data

How the results depend on the processing

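None of the 6 repressors passed in the cerebellum or hippocampus KO comparisons or in the interaction test under any alternative. In cortex 1 passed, Per1, with no filter on low counts, with DESeq2, with the replicate block, with the share of unassigned reads as covariate and in 1 fit of all 24 libraries. In olfactory bulb 1 passed, again Per1, with DESeq2, with the replicate block (0.98, edgeR adjusted p 0.0196) and in 1 fit of all 24 libraries. The replicate numbers did not pair the olfactory bulb or hippocampus libraries (lowest r -0.11 and -0.22). In cerebellum the same-numbered r were weak, at 0.06, 0.11 and 0.09, against -0.08 to -0.01 between different numbers. For the mean over regions 1 passed with the block and in edgeR on 24 libraries. In edgeR without libraries under 8 M counts 2 passed, Per1 at 0.73 and Per2 at 0.25 (adjusted p 0.0314). These edgeR fits counted libraries of different regions as independent, although they may come from the same animals. Their p-values may therefore be too small and their numbers of genes past the threshold too large. The block changed no other KO call. Across WT regions, 2 members passed for cortex with the block, Per2 and Per3, and 2 for olfactory bulb with no filter and with DESeq2. Leaving out 1 replicate gave 0 members in every KO comparison, 1 to 3 for WT cerebellum and 1 to 2 for WT cortex.

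Counts of all genes past the threshold moved more: in cortex 1 gene, against 7 with no filter, 40 with DESeq2, 30 with the block and 57 with the covariate; in olfactory bulb 4, against 16, 17, 11 and 6, and 1 to 8 leaving out 1 library; in cerebellum 1, against 19 with DESeq2; in hippocampus 1, against 16 with DESeq2 and 47 without WT replicate 2; for the mean over regions 2, against 15 with the block and 78 and 174 in the edgeR fits.

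Reversals touched small differences. Cry2 was at -0.03 in cerebellum and -0.02 in olfactory bulb without libraries under 8 M counts, and at -0.01 (-0.0037 with the block) for WT hippocampus. Per3 was at -0.03 in hippocampus with the covariate, and Per1 at -0.03 for WT cerebellum without shallow libraries. Leaving out 1 replicate moved Cry2 from -0.04 to 0.13 in cerebellum, -0.03 to 0.15 in hippocampus and -0.0046 to 0.07 in olfactory bulb, and in cortex Per3 from -0.33 to 0.21, Cry1 from -0.08 to 0.22 and Ciart from -0.22 to 0.25. It moved Per3 from -0.02 to 0.10 in hippocampus, Per1 from -0.09 to 0.11 for WT cerebellum and -0.10 to 0.33 for WT olfactory bulb, and Cry2 from -0.16 to 0.0014 for WT cerebellum and -0.09 to 0.10 for WT hippocampus. Apart from the changes by construction, the cause was not tested. Ciart had the fewest counts of the members in the shallow libraries, with 39 in cerebellum KO 1 (95% Poisson interval 27.7 to 53.3) and 0 in olfactory bulb KO 2. Among genes at 3 to 9 CPM in the region's libraries of full depth, 17.6% were at 0 in cerebellum KO 1 and 17% in olfactory bulb KO 2. In olfactory bulb WT 1, also shallow, 1.13% were. The cause of these zeros was not tested, and the Poisson interval does not cover it.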
